A study of Mus musculus with 8 samples.

Results

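Interferon-stimulated genes are the genes that cells switch on when an interferon binds its receptor. The list of 39 mouse genes described here covers the transcription factors of that response, its sensors of foreign nucleic acid, its antiviral effectors and its interferon-inducible GTPases. A gene was represented by the array probes that the annotation assigns to that 1 symbol, and where it had several, by the one that was brightest on average across all 8 arrays. Of the 39 genes, 33 were found this way among 19938 genes. Isg15, Ifi47, Igtp, Irgm2 and Gbp2 are named only on probes that carry several symbols, and Ifi44 has no annotated probe here, so these 6 were not analysed here. Of the 33 genes, 30 lay above the filter on low values and were tested.

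The samples were hepatocellular carcinomas from 4 male C57BL/6J mice (M24, M48, M50 and M60) and adjacent normal liver of the same 4 mice, with 1 array per sample. Every mouse had been injected with an AAV vector, an adeno-associated virus used to carry genes, at 2 to 3 months of age and was necropsied 18 months later on a normal diet. Tumor and adjacent tissue therefore share the vector, whose cargo the labels do not state, and uninjected mice were not analysed here. The comparison asked how levels in the tumor differed from those in the adjacent liver of the same mouse.

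Type I interferons bind the receptor Ifnar1/Ifnar2, and interferon gamma binds Ifngr1/Ifngr2. Both act through Jak kinases. Type I signals activate a complex that contains Stat2 and Irf9 and binds the interferon-stimulated response element (ISRE) in promoters, while interferon gamma acts through gamma-activated sites (GAS). The induced proteins sense viral RNA, block its translation or degrade it, and in the liver the response is best known from viral hepatitis and from hepatocytes exposed to interferon.

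The promoters of 6 of the genes are shown because they carry the ISRE core and because 4 of them belong to genes that rose in the tumors (Ifih1, Ddx58, Eif2ak2 and Gbp7), while 2 belong to genes that did not pass the test (Ifit1 and Bst2). They are RefSeq sequences of build GRCm38.p6, from 250 bases before to 50 bases after the transcription start, 5′ to 3′ on the gene's own strand. Capitals mark the ISRE core, which is GAAA, then 2 bases of any kind, then GAAA, searched on both strands. Ifih1 lies on the minus strand at chr2:62646206-62646505, Ddx58 on the minus strand at chr4:40239776-40240075 and Eif2ak2 on the minus strand at chr17:78882523-78882822. Gbp7 lies on the plus strand at chr3:142530086-142530385, Ifit1 on the plus strand at chr19:34640639-34640938 and Bst2 on the minus strand at chr8:71537423-71537722.
Ifih1: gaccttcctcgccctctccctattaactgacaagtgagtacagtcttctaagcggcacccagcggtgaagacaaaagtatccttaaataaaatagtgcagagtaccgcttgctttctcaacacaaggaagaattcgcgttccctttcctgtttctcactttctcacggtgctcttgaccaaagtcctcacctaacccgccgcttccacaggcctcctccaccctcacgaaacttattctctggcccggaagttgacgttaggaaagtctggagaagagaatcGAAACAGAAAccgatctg
Ddx58: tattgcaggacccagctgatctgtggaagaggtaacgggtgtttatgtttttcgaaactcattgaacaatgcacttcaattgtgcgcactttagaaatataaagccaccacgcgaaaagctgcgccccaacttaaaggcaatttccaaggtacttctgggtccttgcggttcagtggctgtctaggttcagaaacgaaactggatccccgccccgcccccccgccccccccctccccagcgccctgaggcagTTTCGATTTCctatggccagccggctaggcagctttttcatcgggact
Eif2ak2: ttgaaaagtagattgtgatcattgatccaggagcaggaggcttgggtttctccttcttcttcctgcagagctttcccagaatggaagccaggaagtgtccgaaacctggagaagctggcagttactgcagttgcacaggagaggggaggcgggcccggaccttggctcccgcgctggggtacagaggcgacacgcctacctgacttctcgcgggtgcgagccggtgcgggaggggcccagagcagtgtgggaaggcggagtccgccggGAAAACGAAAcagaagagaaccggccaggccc
Gbp7: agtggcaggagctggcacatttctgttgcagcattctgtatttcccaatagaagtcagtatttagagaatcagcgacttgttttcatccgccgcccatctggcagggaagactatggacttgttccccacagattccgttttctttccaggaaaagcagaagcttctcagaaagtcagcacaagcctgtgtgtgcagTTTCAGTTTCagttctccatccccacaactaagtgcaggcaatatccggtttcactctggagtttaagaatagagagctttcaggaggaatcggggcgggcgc
Ifit1: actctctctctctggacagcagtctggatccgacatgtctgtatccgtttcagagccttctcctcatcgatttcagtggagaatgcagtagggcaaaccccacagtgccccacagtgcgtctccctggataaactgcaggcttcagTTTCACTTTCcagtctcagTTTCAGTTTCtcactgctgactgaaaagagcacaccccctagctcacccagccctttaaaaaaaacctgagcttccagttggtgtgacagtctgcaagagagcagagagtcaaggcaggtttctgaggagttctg
Bst2: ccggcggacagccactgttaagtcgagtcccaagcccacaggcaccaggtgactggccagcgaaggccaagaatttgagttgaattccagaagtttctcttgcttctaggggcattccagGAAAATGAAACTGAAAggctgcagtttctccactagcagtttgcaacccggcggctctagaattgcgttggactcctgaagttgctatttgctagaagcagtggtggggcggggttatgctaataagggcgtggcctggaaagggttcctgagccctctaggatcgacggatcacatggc

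The place of the core differed among these promoters. Counting the first transcribed base as 1, the match began at base 33 in Ifih1, at base 3 in Ddx58 and at base 19 in Eif2ak2, inside the transcribed part. It began at base -53, upstream of the start, in Gbp7. In the same way Ifit1 had 2 matches, at bases -104 and -85, and Bst2 had 2, at bases -130 and -124, that share bases with each other.

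RefSeq promoters were matched for 24 of the 33 genes, and 13 of the 24 (54.2%) held at least 1 ISRE core. Among all 27025 genes of the promoter table the share was 3.99%, and among all 32851 promoters of the same length it was 3.44%. The core was found in 4 of the 8 genes with a promoter that rose (50%) and in 8 of the 15 tested genes that did not pass (53.3%). The GAS core, TTC, then 3 bases of any kind, then GAA, reads the same on both strands and was found in 8 of 24 genes (33.3%), against 9.55% of all genes and 8.3% of all promoters. It was found in 4 of the 8 that rose (50%) and in 4 of the 15 that did not pass (26.7%). In Bst2 a GAS core and an ISRE core share bases. A match is a description of the letters in this window and does not show that a factor binds there.

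The 8 arrays had medians over all probes from 4.888 to 5.006 in log2 units, and their number limits the precision. Of 8 hepatocyte markers 1 rose and 2 fell at the threshold given below (12.5% and 25%), against 16.3% and 15.7% of all tested genes. Their differences, tumor minus adjacent, ran from -0.84 to 0.32 with a median of -0.05. Among them albumin (Alb) averaged 13.91 ± 0.0599 in tumors and 13.80 ± 0.118 in adjacent liver (SD, n = 4 each). Across genes, tumor arrays correlated with each other at 0.988 to 0.992. The adjacent arrays of M24, M50 and M60 correlated at 0.993 to 0.995, but that of M48 stood apart, at 0.984 to 0.987 with the other adjacent arrays. Each tissue of a mouse was measured once, so n is the number of mice.

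Many of the interferon-stimulated genes were higher in the tumors, by modest amounts. Of the 30 tested genes 12 rose (40%) and 0 fell, and 18 did not pass. At an unadjusted p under the same threshold 17 were higher and 0 lower. The threshold was an adjusted p under 0.05 in limma's paired fit over 11963 genes. Among all tested genes 16.3% rose and 15.7% fell, 31.9% in all. The 12 genes that rose were Usp18, Ifih1, Zbp1, Dhx58, Gbp7, Isg20, Oasl1, Samd9l, Ifit2, Eif2ak2, Parp14 and Ddx58. Their differences, tumor minus adjacent, ran from 0.46 for Ddx58 to 0.84 for Usp18 in log2 units, or 1.38-fold to 1.79-fold, so none of the 12 reached 2-fold. The median difference over the 30 genes was 0.39, against 0.0008 over all tested genes. Mouse by mouse it was 0.14 (M24), 0.32 (M48), 0.45 (M50) and 0.46 (M60). Without M60 the fit called 6 of the 30 genes higher and 0 lower, and it called 9 higher without M24, 9 without M50 and 11 without M48. Calls were lost among all tested genes too. There 1238 were higher without M60, 1479 without M24, 1368 without M50 and 1759 without M48, against 1945 in the full fit. In whole tissue, more cells that express a gene cannot be told apart from more RNA per cell.

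**Figure D1:**
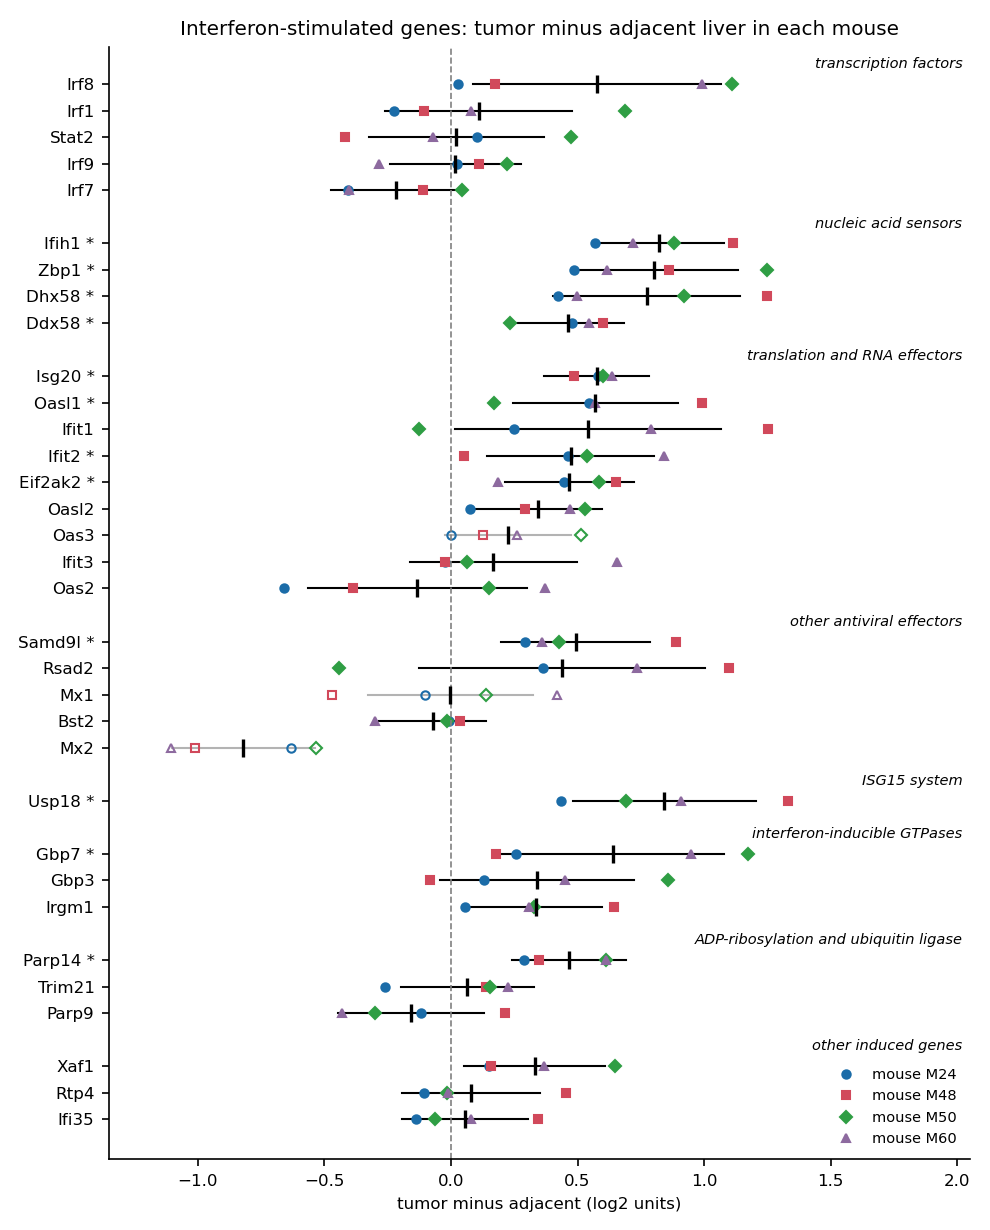
Tumor minus adjacent difference in log2 units (x axis) for each of the 33 measured interferon-stimulated genes (y axis), grouped by role. Coloured symbols are the 4 mice, vertical ticks the fitted means and lines their 95% confidence intervals. Asterisks mark the 12 genes that rose, and open symbols with grey lines the 3 genes below the filter, whose intervals come from the fit with no filter. All 4 nucleic acid sensors lie right of 0 in every mouse, while most transcription factors scatter on both sides of 0.

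In 11 of the 30 genes the lowest tumor value lay above the highest adjacent value (36.7%), against 14.9% of all tested genes, and in 0 the groups were separated the other way, against 15.6%. In 16 genes all 4 mice had a higher value in the tumor, against 24.6% of all genes. In 0 genes all 4 mice had a lower one, against 25.3%. The values below are log2 expression levels in the order M24, M48, M50 and M60. Differences are tumor minus adjacent with the standard error (SE) of the fit over n = 4 pairs.

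All 4 genes grouped here as sensors of nucleic acid rose, against 16.3% of all tested genes. Each role holds few genes, and whether the roles differ was not tested. Eif2ak2, whose product also binds double-stranded RNA, and the Oas genes are grouped below with effectors that act on RNA or translation. Ifih1 encodes MDA5, which detects long double-stranded RNA in the cytosol. Its levels were 8.62, 8.58, 8.68 and 8.58 in tumors, against 8.05, 7.47, 7.80 and 7.86 in adjacent liver. The 4 tumors were nearly level with each other, the adjacent sample of M48 was the lowest, and the groups did not overlap. The difference was 0.82 (SE 0.108, limma adjusted p = 0.00262), or 1.77-fold. Zbp1, a sensor of Z-form nucleic acid that can trigger cell death, had 7.18, 7.59, 7.77 and 7.29 in tumors, against 6.70, 6.73, 6.52 and 6.67 in adjacent liver. Here the spread lay in the tumors, with M24 lowest and M50 highest, and the adjacent samples were close together. Its difference was 0.80 (SE 0.138, limma adjusted p = 0.00652).

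Dhx58 encodes LGP2, a relative of MDA5 and RIG-I that modulates their signal. It had 6.55, 6.74, 6.90 and 6.34 in tumors, against 6.12, 5.49, 5.98 and 5.84 in adjacent liver, with a difference of 0.77 (SE 0.154, limma adjusted p = 0.0109). M48, whose adjacent sample was the lowest of the 8, showed the largest difference (1.25), and M24 the smallest (0.42). Ddx58 encodes RIG-I, which detects RNA with a free triphosphate end. It had 8.52, 8.35, 8.12 and 8.44 in tumors and 8.04, 7.75, 7.88 and 7.89 in adjacent liver, and its difference of 0.46 (SE 0.0924, limma adjusted p = 0.0108) was the smallest of the 4 sensors. The groups of Dhx58 and Ddx58 did not overlap either. Without M60 the limma adjusted p of Ddx58 was 0.0543, while the calls of Ifih1, Zbp1 and Dhx58 held with each mouse left out.

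Of the 5 transcription factors 0 passed in limma, and 1, Irf8, had an unadjusted p under 0.05. Among all tested genes 31.9% passed in either direction. Irf8, which drives macrophage and dendritic cell genes, had 6.23, 6.68, 6.91 and 6.51 in tumors and 6.20, 6.51, 5.80 and 5.52 in adjacent liver. The tumor was higher by 1.11 in M50 and 0.99 in M60, but by only 0.03 in M24 and 0.18 in M48, and the groups overlapped. The mean difference was 0.58 (95% confidence interval 0.09 to 1.07, limma adjusted p = 0.0745). Irf7, which amplifies type I interferon production, had 7.66, 8.32, 7.85 and 7.45 in tumors and 8.07, 8.43, 7.81 and 7.85 in adjacent liver. Tumor values were lower in M24, M48 and M60 and about equal in M50, with a mean of -0.22 (-0.47 to 0.04, limma adjusted p = 0.167).

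Irf1, a factor induced strongly by interferon gamma, had 8.12, 8.13, 8.86 and 8.41 in tumors and 8.35, 8.23, 8.18 and 8.33 in adjacent liver. The tumor of M50 stood above all other samples, and M24 and M48 were lower in the tumor. The difference was 0.11 (-0.26 to 0.48), and a second Irf1 probe gave -0.07. Stat2 and Irf9, which belong to the complex that binds the ISRE, differed by 0.02 (-0.32 to 0.37) and 0.02 (-0.24 to 0.28). Neither gene moved the same way in all 4 mice. Stat2 was lower in the tumor of M48 (-0.42) and higher in that of M50 (0.47).

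The system of the ubiquitin-like modifier ISG15 was represented by Usp18, the protease that removes ISG15 from proteins and dampens the type I receptor. Usp18 had 6.87, 7.43, 7.28 and 7.16 in tumors, against 6.43, 6.10, 6.59 and 6.25 in adjacent liver. Every tumor lay above every adjacent sample, and the difference was largest in M48 (1.33) and smallest in M24 (0.44). At 0.84 (SE 0.151, limma adjusted p = 0.00757), or 1.79-fold, it was the largest difference of the 33 measured genes.

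**Figure D2:**
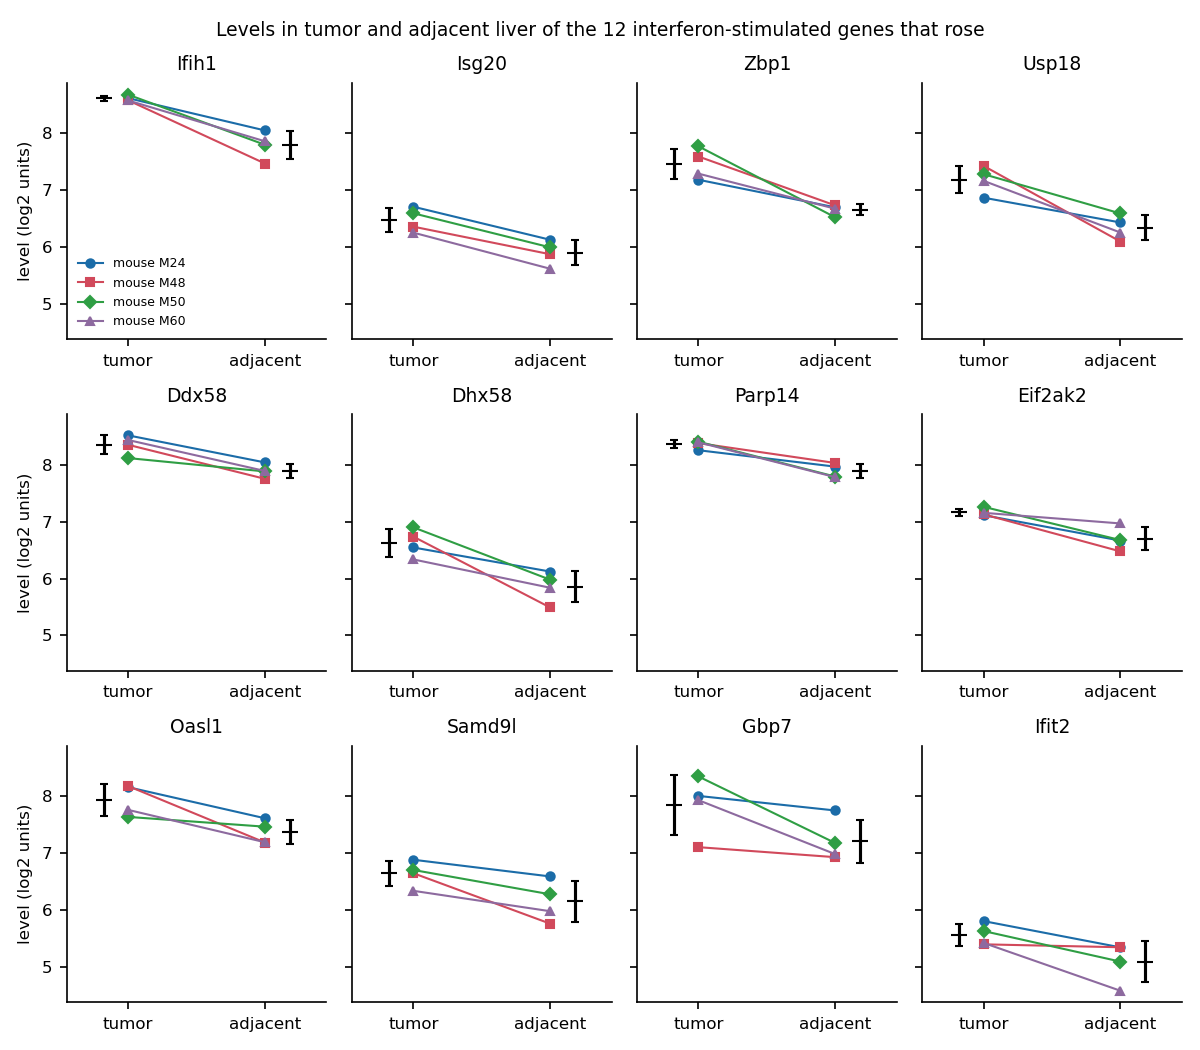
Log2 expression level (y axis) in tumor and adjacent liver (x axis) of the 12 genes that rose, with a line for each mouse and black bars for the group mean ± SD (n = 4). The lines slope the same way in all 4 mice in every panel, steeply for M48 in Ifih1, Dhx58 and Usp18 and almost flat for M48 in Ifit2 and Gbp7.

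Among effectors that act on RNA or translation, 4 of 8 tested genes rose (50%), against 16.3% of all tested genes. Isg20, a nuclease that degrades single-stranded RNA, had 6.71, 6.36, 6.59 and 6.25 in tumors, against 6.13, 5.87, 5.99 and 5.62 in adjacent liver. Its 4 mouse differences were the most even of the genes that rose, from 0.49 in M48 to 0.64 in M60, and the groups did not overlap. The difference was 0.58 (SE 0.0869, limma adjusted p = 0.00409). Eif2ak2 encodes PKR, the kinase that stops translation when it binds double-stranded RNA. It had 7.11, 7.13, 7.26 and 7.16 in tumors and 6.67, 6.48, 6.68 and 6.97 in adjacent liver, a difference of 0.47 (SE 0.106, limma adjusted p = 0.0173). The tumors were close to one another and the groups did not overlap, yet limma's adjusted p was 0.0592 without M24, 0.0502 without M48 and 0.0693 without M50.

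Oasl1, an oligoadenylate synthetase-like protein that in mice restrains translation of Irf7, had 8.16, 8.18, 7.64 and 7.76 in tumors and 7.62, 7.19, 7.47 and 7.19 in adjacent liver. It rose by 0.57 (SE 0.137, limma adjusted p = 0.0207, 0.0695 without M24 and 0.0709 without M60), most in M48 (0.99) and least in M50 (0.17). Its neighbour in sequence Oasl2 was higher in all 4 tumors, at 6.56, 7.12, 6.75 and 6.93 against 6.48, 6.83, 6.22 and 6.46 in adjacent liver, but just missed the threshold with a difference of 0.34 (limma adjusted p = 0.0511, and 0.0469 without M24). Oas2, which makes the second messenger that activates RNase L, went both ways, from -0.66 in M24 to 0.37 in M60, with a mean of -0.13 (-0.56 to 0.30). Oas3 lay below the filter in all 8 samples, at 3.96 to 4.49.

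The Ifit proteins bind viral RNA ends and block their translation. Ifit2 had 5.80, 5.40, 5.63 and 5.42 in tumors and 5.34, 5.34, 5.09 and 4.58 in adjacent liver and rose by 0.47 (SE 0.138, limma adjusted p = 0.0403). The groups did not overlap, but the margin was narrow, with a difference of only 0.05 in M48. Its limma adjusted p was 0.111 when M24 was left out, 0.126 for M50 and 0.141 for M60. It was 0.0517 with no filter and 0.0784 without the mouse as a block. Ifit1 had 6.38, 6.47, 6.35 and 6.59 in tumors and 6.13, 5.22, 6.47 and 5.80 in adjacent liver. Its tumors were level and its adjacent samples widely spread, so that the difference of 0.54 (0.02 to 1.07, limma adjusted p = 0.108) came mostly from M48 and M60. Ifit3 had 6.36, 6.31, 6.49 and 6.36 in tumors and 6.38, 6.33, 6.42 and 5.71 in adjacent liver, where M60 alone was low. Probes of close copies such as Oasl1 and Oasl2, the Ifit genes or Gbp3 and Gbp7 can share signal, which makes the value of each of these genes uncertain.

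The other antiviral effectors act on membranes, particles or translation. Samd9l, an inhibitor of viral translation, had 6.88, 6.65, 6.70 and 6.34 in tumors and 6.59, 5.76, 6.28 and 5.98 in adjacent liver and rose by 0.49 (SE 0.123, limma adjusted p = 0.0242). Each tumor was above the adjacent tissue of its own mouse, but the tumor of M60 lay below the adjacent sample of M24. The limma adjusted p was 0.0687 without M50, 0.0585 without M60 and 0.0788 without the mouse as a block. Rsad2 (viperin), which makes a chain-terminating nucleotide, had 6.46, 6.98, 7.07 and 6.72 in tumors and 6.10, 5.88, 7.51 and 5.98 in adjacent liver. The adjacent sample of M50 was the highest of all 8, and the other 3 mice had higher values in the tumor. The difference was 0.44 (-0.13 to 1.0040, limma adjusted p = 0.206), and without M50 the gene passed the test (limma adjusted p = 0.0322). Bst2 (tetherin), which holds budding virus at the cell surface, had 10.36, 10.41, 10.67 and 9.95 in tumors and 10.37, 10.37, 10.69 and 10.25 in adjacent liver. Its difference was -0.07, and the interval of -0.29 to 0.14 excludes a rise as large as that of any of the 12 genes.

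The Mx genes encode dynamin-like GTPases that trap viral particles. In C57BL/6 mice Mx1 carries a deletion that leaves no working protein. Mx1 was below the filter in every sample, at 3.55, 3.49, 3.73 and 3.77 in tumors and 3.65, 3.96, 3.59 and 3.35 in adjacent liver. Mx2 was below the filter in every tumor, at 4.00, 4.12, 4.03 and 3.71, and close to it in adjacent liver, at 4.64, 5.13, 4.57 and 4.81. It had the most negative difference of the 33 genes, lower in 4 of 4 mice and with groups that did not overlap. Its mean level left it out of the test, and with no filter it passed as lower by 0.82 (SE 0.119, limma adjusted p = 0.00413), where 8.97% of 19938 genes were lower and 9.70% higher. Its tumor level lay in the range left out as low, where the size of a difference is uncertain.

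The interferon-inducible GTPases guard against parasites and bacteria inside cells and respond strongly to interferon gamma. Gbp7, a guanylate-binding protein, had 8.01, 7.11, 8.35 and 7.93 in tumors and 7.75, 6.93, 7.18 and 6.98 in adjacent liver and rose by 0.64 (SE 0.184, limma adjusted p = 0.0388). The differences were 1.17 in M50 and 0.95 in M60, against 0.26 in M24 and 0.18 in M48, and the groups overlapped. The limma adjusted p was 0.0541 without M24, 0.126 without M50, 0.139 without M60 and 0.111 without the mouse as a block. Gbp3 had 6.77, 6.55, 7.44 and 6.76 in tumors and 6.64, 6.64, 6.58 and 6.31 in adjacent liver, with the tumor of M50 standing above the rest, and did not pass (0.34, -0.04 to 0.72, limma adjusted p = 0.157). Irgm1, which regulates the other immunity-related GTPases, had 8.65, 8.52, 8.79 and 8.80 in tumors and 8.60, 7.88, 8.46 and 8.50 in adjacent liver. It was higher in all 4 tumors but missed the threshold (0.33, limma adjusted p = 0.059), which it passed after quantile normalization (limma adjusted p = 0.0431).

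Of the 3 genes of ADP-ribosylation and ubiquitin transfer, 1 rose, against 16.3% of all tested genes. Parp14, a mono-ADP-ribosyltransferase, had 8.26, 8.38, 8.41 and 8.40 in tumors, against 7.97, 8.03, 7.79 and 7.78 in adjacent liver, and rose by 0.47 (SE 0.0946, limma adjusted p = 0.0116, 0.0584 without M60). Its groups were tight and did not overlap. Parp9, which acts with the ubiquitin ligase Dtx3l, had 7.69, 7.81, 7.68 and 7.47 in tumors and 7.81, 7.60, 7.98 and 7.90 in adjacent liver and did not pass (-0.16, -0.45 to 0.13). Trim21, an antibody receptor of the cytosol with ubiquitin ligase activity, had 6.63, 6.76, 6.83 and 7.02 in tumors and 6.89, 6.62, 6.68 and 6.80 in adjacent liver (0.07, -0.20 to 0.33). Parp9 was lower in 3 of 4 tumors and Trim21 higher in 3 of 4.

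Of the other 3 induced genes 0 passed in limma, against 31.9% of all tested genes in either direction. Only 1, Xaf1, had an unadjusted p under 0.05. The limma adjusted p-values were 0.0726 for Xaf1, 0.632 for Rtp4 and 0.724 for Ifi35. Xaf1, a partner of the apoptosis inhibitor XIAP, had 5.93, 6.07, 6.18 and 5.98 in tumors and 5.78, 5.92, 5.53 and 5.62 in adjacent liver. It was higher in all 4 tumors with no overlap between groups, at a difference of 0.33, and passed without the mouse as a block (limma adjusted p = 0.0455). Rtp4, a chaperone of membrane receptors, had 7.94, 8.35, 7.96 and 7.98 in tumors and 8.05, 7.89, 7.98 and 7.99 in adjacent liver, where only the tumor of M48 stood out. Ifi35 had 7.71, 7.77, 7.72 and 7.71 in tumors and 7.85, 7.43, 7.78 and 7.63 in adjacent liver. The intervals of their differences were -0.19 to 0.35 for Rtp4 and -0.20 to 0.31 for Ifi35.

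The samples were not ordered alike by all genes. In adjacent liver the sample of M48 was the lowest of 4 for 16 of the 30 tested genes and the highest for 9. Among the 12 genes that rose it was lowest for 8 and highest for 3. The adjacent sample of M24 was lowest for 0 of the 30 and highest for 13. Among tumors M50 was highest for 15 of 30 and M24 lowest for 13. The median SD within a group over the 30 genes was 0.202 in tumors and 0.213 in adjacent liver, against 0.154 and 0.155 over all tested genes.

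**Figure D3:**
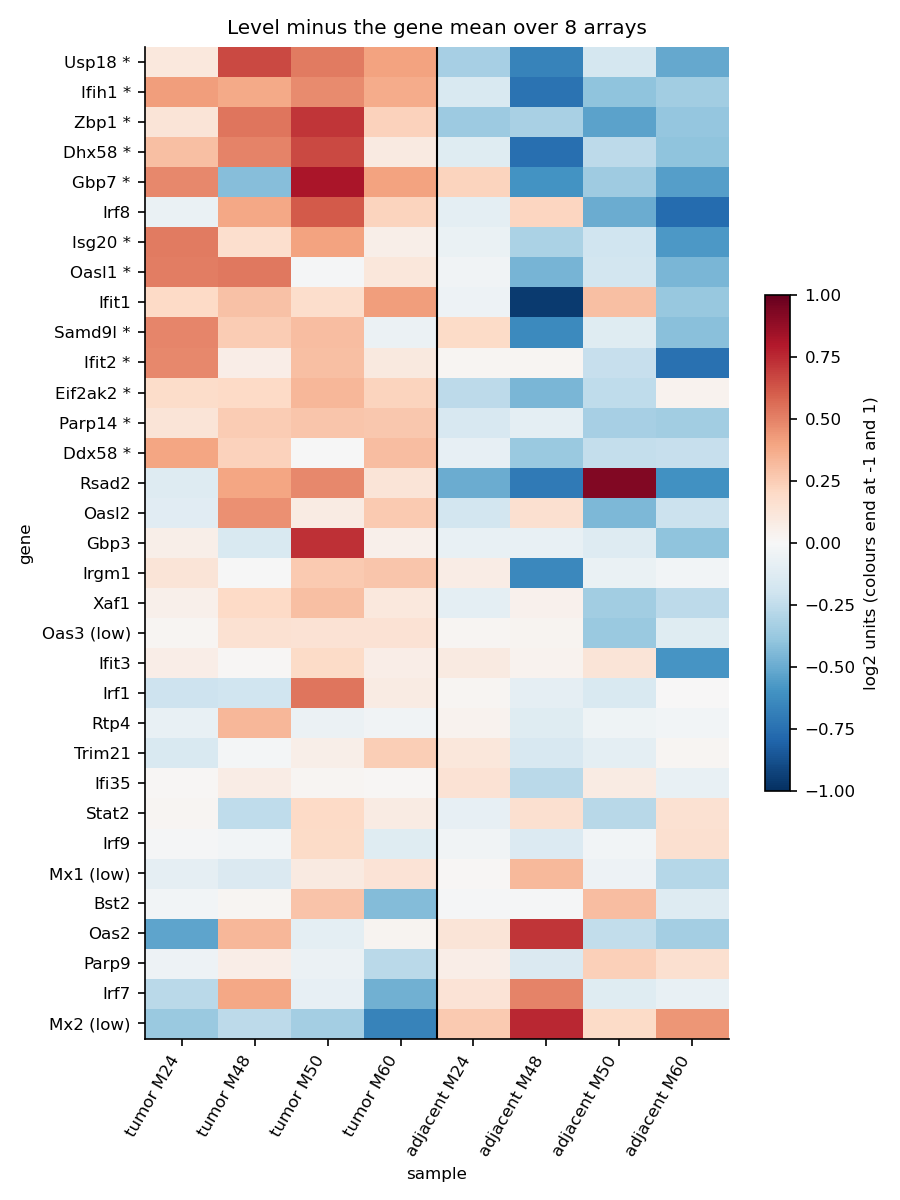
Level of each of the 33 genes (rows) in each of the 8 samples (columns, tumors left of the black line, adjacent liver right of it) minus the gene's mean over the 8 arrays, in log2 units. Genes are ordered by tumor minus adjacent difference, asterisks mark the 12 that rose and "low" the 3 below the filter. The upper rows are red on the left and blue on the right, and the adjacent column of M48 is the lowest of its group for 16 tested genes and the highest for 9.

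The interferons themselves were measured beside their target genes. Of 21 listed ligands 16 had a probe, and 13 of these were below the filter, among them interferon beta (Ifnb1, 3.18 in tumors and 3.20 in adjacent liver) and interferon gamma (Ifng, 3.64 in tumors and 3.52 in adjacent liver). Of the 3 tested ligands 0 passed in limma, against 31.9% of all tested genes, and 0 had an unadjusted p under 0.05. Ifna5, Ifnz and Ifnl2 had differences of -0.06 (-0.33 to 0.21), 0.07 (-0.24 to 0.37) and 0.25 (-0.05 to 0.55). With no filter Ifne passed as lower by 0.33 (limma adjusted p = 0.0442), where 8.97% of 19938 genes were lower. Its means of 3.47 in tumors and 3.81 in adjacent liver lay in the range left out as low, where the size of a difference is uncertain.

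Of 20 tested genes of receptors and signalling, 5 rose and 2 fell (25% and 10%), against 16.3% and 15.7% of all tested genes. Their median difference was 0.17. The counts were 3 higher and 1 lower without M24, 4 and 1 without M48, 3 and 3 without M50, 3 and 1 without M60, and 3 and 1 without the mouse as a block. Both chains of the interferon gamma receptor rose. Ifngr1, the chain that binds the ligand, had 9.36, 9.67, 9.64 and 9.64 in tumors, against 7.89, 8.18, 7.77 and 7.47 in adjacent liver, a rise of 1.75 (SE 0.134, limma adjusted p = 0.000444), or 3.36-fold. Ifngr2, the second chain, had 9.22, 9.44, 9.25 and 9.24 in tumors, against 8.58, 8.69, 8.19 and 8.17 in adjacent liver, and rose by 0.88 (SE 0.103, limma adjusted p = 0.00177). For both genes all tumors lay above all adjacent samples. The chains of the type I receptor did not pass: Ifnar1 differed by 0.19 (-0.02 to 0.41) and Ifnar2 by -0.10 (-0.29 to 0.09). Whether the gamma and type I chains differ from each other was not tested.

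Il10rb, a chain of the receptors for interleukin 10 and interferon lambda, rose by 0.68 (limma adjusted p = 0.0105, 0.0702 without the mouse as a block). Ifnlr1, also a chain of the lambda receptor, lay below the filter, at means of 4.24 in tumors and 3.77 in adjacent liver. With no filter it passed as higher by 0.47 (limma adjusted p = 0.0447), where 9.70% of 19938 genes were higher. The kinase Jak1 rose by 0.40 (limma adjusted p = 0.0148, 0.0557 without M24, 0.0544 without M50 and 0.0762 without M60). The phosphatase Ptpn6 rose by 0.33 (limma adjusted p = 0.0368), a call that each mouse left out ended, with limma adjusted p-values of 0.0634 without M24, 0.056 without M48, 0.123 without M50 and 0.131 without M60. Irf2, known as an antagonist of Irf1, fell by 0.56 (SE 0.102, limma adjusted p = 0.00786), with every tumor below every adjacent sample. The feedback inhibitor Socs3 fell by 0.77 (limma adjusted p = 0.0449), and by 0.47 without M48 and 0.50 over the mean of its probes. Its call was lost without M24 (0.129), without M48 (0.0556), without M60 (0.0666), with no filter (0.0556), over the mean of its probes (0.0904) and without the mouse as a block (0.216).

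A list of nucleic acid sensing upstream of interferon, with adaptors, kinases and nucleases, held 23 tested genes other than the 4 sensors above. Of these, 4 rose and 2 fell (17.4% and 8.7%), against 16.3% and 15.7% of all tested genes. Without M50 the counts were 2 higher and 3 lower, and without M60 3 higher and 1 lower. Without the mouse as a block 4 were lower, and with median-centred arrays 4. The kinase Ikbke, which activates Irf3 and Irf7, had 8.29, 8.48, 8.60 and 8.53 in tumors, against 7.40, 7.27, 7.22 and 6.86 in adjacent liver, and rose by 1.28 (SE 0.133, limma adjusted p = 0.00116) with no overlap. The DNA sensor Aim2 rose by 1.08 (limma adjusted p = 0.00801) and the adaptor Sting1 by 0.98 (limma adjusted p = 0.0128, 0.0555 without M50). Unc93b1, the chaperone of endosomal Toll-like receptors, rose by 0.38 (limma adjusted p = 0.0462), which did not hold without M24 (0.058), M50 (0.151) or M60 (0.167), nor under 5 other settings. Rnaseh2c, a subunit of the nuclease that clears RNA from DNA, fell by 0.92 (SE 0.0859, limma adjusted p = 0.000875), and the adaptor Traf6 by 0.43 (limma adjusted p = 0.0121, 0.062 without M60). Mavs, the adaptor of RIG-I and MDA5, and Irf3, the factor at the end of that route, did not pass, with differences of -0.31 (-0.56 to -0.06) and -0.24 (-0.45 to -0.04).

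A second list of interferon-stimulated genes, outside the 39, held 83 genes with a probe, of which 70 were tested. Of these, 27 rose (38.6%) and 3 fell (4.29%), against 16.3% and 15.7% of all tested genes. The median difference was 0.29. Without M60 the counts were 17 higher and 1 lower, and 1 was lower without M24 and 1 without M50. The 4 with the smallest p were Ifi27l2b (2.78, limma adjusted p = 0.000294), the inflammatory caspase Casp1 (2.25, limma adjusted p = 0.000358), the scramblase Plscr1 (1.43, limma adjusted p = 0.000441) and the caspase Casp4 (2.28, limma adjusted p = 0.000745). These rises were larger than that of any of the 30 tested genes of the list of 39. The chemokine Cxcl9, a classic target of interferon gamma, had 8.45, 7.24, 9.80 and 9.64 in tumors, against 6.32, 6.01, 6.36 and 6.53 in adjacent liver, a rise of 2.48 (SE 0.345, limma adjusted p = 0.00307). Cxcl10 rose by 1.61 (limma adjusted p = 0.00289). Every tumor lay above every adjacent sample for both chemokines.

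More members of the guanylate-binding family rose in that list: Gbp9 by 1.23 (limma adjusted p = 0.0201), Gbp4 by 1.01 (limma adjusted p = 0.0179) and Gbp8 by 0.84 (limma adjusted p = 0.0133). Without M60 their limma adjusted p-values were 0.067, 0.0678 and 0.0525, and Gbp8 had 0.0572 without M50. Oas1a, an oligoadenylate synthetase, rose by 0.98 (limma adjusted p = 0.0412, 0.0575 without M24, 0.0525 without M48 and 0.0915 without M60). Without M50, where the difference was 2.18, it was 0.58 (limma adjusted p = 0.0289), and the call was also lost with no filter (0.0503) and after quantile normalization (0.0514). The genes that fell were Plscr2 by 1.17 (limma adjusted p = 0.0095), Herc6 by 0.34 (limma adjusted p = 0.0331) and Isoc1 by 0.30 (limma adjusted p = 0.0266). Herc6 encodes the mouse ligase for ISG15, and its call was lost without M24 (0.119), M48 (0.0595), M50 (0.105) or M60 (0.0583). That of Isoc1 was lost without M24 (0.0972), M50 (0.0803) or M60 (0.116).

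Of 14 tested genes of MHC class I presentation that interferon induces, 6 rose (42.9%) and 0 fell, with a median of 0.32. The shares of all tested genes were 16.3% and 15.7%. The immunoproteasome subunit Psmb9 had 8.93, 8.44, 9.36 and 9.06 in tumors, against 8.35, 7.30, 7.68 and 7.67 in adjacent liver, and rose by 1.20 (SE 0.175, limma adjusted p = 0.00361). The peptide transporter genes Tap1 and Tap2 rose by 1.05 (limma adjusted p = 0.00548) and 0.78 (limma adjusted p = 0.00961). H2-T10 and H2-Q4 rose by 0.57 (limma adjusted p = 0.00755) and 0.49 (limma adjusted p = 0.00852), though the probes of H2 genes can share signal. Psmb8 rose by 0.75 (limma adjusted p = 0.0123, 0.0533 without M60). In all 6 genes every tumor lay above every adjacent sample. Of the 14 genes, 7 were separated this way (50%), against 14.9% of all tested genes. The groups of 1 gene, with a difference of -0.18, were separated the other way, against 15.6% of all tested genes. The light chain B2m stood at 0.02 (-0.19 to 0.23).

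**Figure D4:**
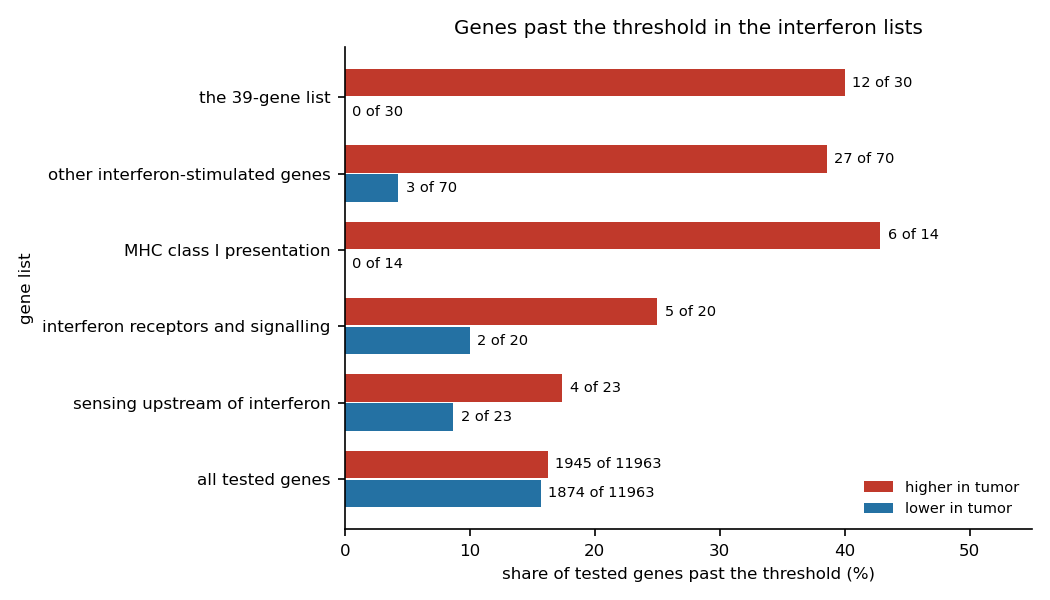
Share of tested genes past the threshold (x axis, %) in the list of 39, in 4 further lists of the interferon pathway and among all tested genes (y axis). Upper bars give genes higher and lower bars genes lower in the tumors, with counts beside them. The list of 39, the second list of interferon-stimulated genes and the MHC class I list have 40%, 38.6% and 42.9% higher, against 16.3% of all tested genes. Without M60 the counts higher were 6 of 30, 17 of 70 and 5 of 14, against 1238 of 11963 tested genes.

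Markers of other cells moved beside these genes. For comparison, 16.3% of all tested genes rose and 15.7% fell. Of the monocyte and infiltrating macrophage markers 6 of 10 tested rose and 0 fell, among them Ccr2 (0.99, limma adjusted p = 0.00615, 0.144 without the mouse as a block) and Lgals3 (1.68, limma adjusted p = 0.0131). Their summed linear level was 2414 to 4895 array units in tumors and 1111 to 3376 in adjacent liver. Of the dendritic cell markers 4 of 8 rose and 0 fell, including Cd74 (1.43, limma adjusted p = 0.00779), with sums of 2180 to 2706 in tumors and 726 to 1473 in adjacent liver. Of these 8 markers, 1 was lower in all 4 mice, with every tumor below every adjacent sample. The lowest difference among the 8 was -0.56, and 1 marker was lower at an unadjusted p under 0.05. Endothelial markers rose in 7 of 12 cases and fell in 0, including Pecam1 (1.02, limma adjusted p = 0.0077), with sums of 2845 to 3982 in tumors and 2205 to 2699 in adjacent liver.

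Kupffer cell markers split both ways, where 16.3% of all tested genes rose and 15.7% fell. Of 12 tested, 5 fell and 0 rose, but 6 differences were positive and 6 negative, with a median of -0.03, and at an unadjusted p under 0.05 4 were higher and 5 lower. Clec4f fell by 0.65 (limma adjusted p = 0.0225, 0.0894 without M24, 0.0649 without M48, 0.0646 without M50 and 0.27 without the mouse as a block) and Timd4 by 0.94 (limma adjusted p = 0.00644, 0.262 without the mouse as a block). The Kupffer sums were 3386, 8010, 3048 and 3275 in tumors and 4599, 8574, 2142 and 2393 in adjacent liver, in the order M24, M48, M50 and M60. They were lower in the tumor in M24 and M48 and higher in M50 and M60, and M48 was the highest in both tissues. In T cell markers 0 of 6, in natural killer cell markers 0 of 3, in B and plasma cell markers 0 of 4 and in neutrophil markers 0 of 2 tested genes passed the limma threshold in either direction. At an unadjusted p under 0.05, 2 T cell, 2 natural killer cell and 1 B or plasma cell marker were higher and 1 neutrophil marker lower. The T cell sum was 687 in the tumor of M60 and 241 to 295 in the other tumors, against 204 to 256 in adjacent liver. The natural killer cell sum was 408 in the tumor of M60 and 206 to 259 in the other tumors, against 162 to 219 in adjacent liver.

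Plasmacytoid dendritic cells are the main makers of type I interferon, and their defining marker Siglech was below the filter in both tissues (4.11 in tumors and 3.97 in adjacent liver). Of their 5 tested markers 1 rose (20%) and 0 fell, against 16.3% and 15.7% of all tested genes. The marker that rose was Ly6d, at 6.03 (limma adjusted p = 2.22e-06), and another of the 5 markers, Bst2, belongs to the list of 39. Their sum, 5178 to 7267 in tumors and 1515 to 1960 in adjacent liver, holds that large rise of Ly6d. Also below the filter were Cd3d (T cells), Ncr1 and Klrb1c (natural killer cells), Ms4a1 and Cd79a (B cells) and Ly6g (neutrophils). Cd3d passed as higher with no filter (0.44, limma adjusted p = 0.044), where 9.70% of 19938 genes were higher. Of the B and plasma cell markers the sum was 891 to 1806 in tumors and 780 to 1061 in adjacent liver, and of the neutrophil markers 185 to 259 in tumors and 184 to 340 in adjacent liver. Stellate cell and fibroblast markers rose in 5 of 12 cases and fell in 0, with sums of 5046 to 5961 in tumors and 2895 to 6033 in adjacent liver. Cholangiocyte markers rose in 4 of 7 cases and fell in 0, with sums of 562 to 899 in tumors and 370 to 475 in adjacent liver. The part of any of these cells in the differences of the interferon-stimulated genes was not tested.

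**Figure D5:**
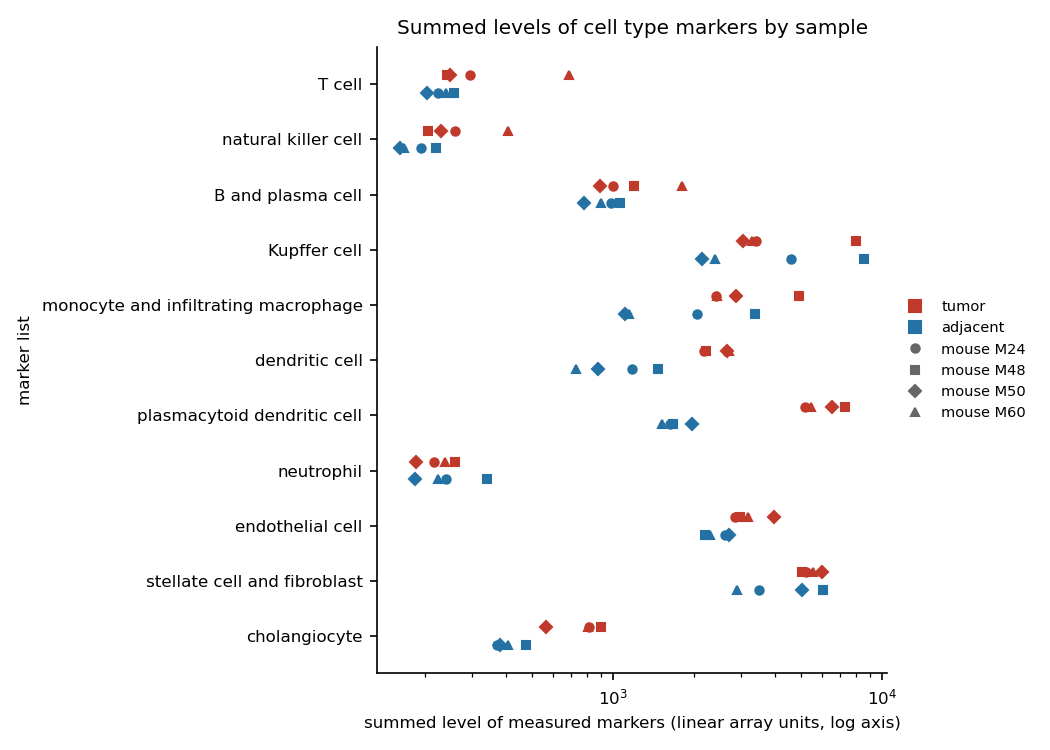
Summed linear level of the measured markers of each cell type (x axis, linear array units on a log axis) in each sample, with tumors in red above adjacent liver in blue for each marker list (y axis) and a symbol for each mouse. Dendritic cell, plasmacytoid dendritic cell, endothelial and cholangiocyte sums of all tumors lie above those of all adjacent samples. The plasmacytoid dendritic cell sum holds the large rise of Ly6d. Kupffer cell sums of both tissues of M48 lie far to the right, and the tumor of M60 has the highest T cell sum.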

How the data were processed

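The deposited values are log2 expression levels of 28874 probes in 8 samples, in 1 table made by the authors. Per the labels' protocols, RNA (0.2 ug a sample) was amplified linearly and biotin-labelled, and per the submitters' processing notes MAS5 was used, with no version or role. How background and scaling were treated is not given in the sources used here, and that the values are log2 was read off their range, 1.918 to 14.49. Of the probes 21789 had 1 gene symbol, 1621 had several and 5464 had none, and RefSeq's GRCm38.p6 table held the gene of 21698 probes with 1 symbol.

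Each of 19938 genes was represented by its brightest single-symbol probe. The 40% of genes with the lowest mean (below 4.597) were left out, and 11963 were tested with limma 3.58.1 in R 4.3.3 (eBayes with trend). The mouse was a block, since tumor and adjacent tissue of a number come from 1 animal. Deviations from the group means correlated between the tissues of a mouse at 0.313 (M24), 0.421 (M48), 0.0986 (M50) and 0.111 (M60). Between tissues of different mice they correlated at -0.378 to 0.189, a range that holds the values of M50 and M60. Tests were two-sided, with Benjamini-Hochberg adjustment over all tested genes and a threshold of 0.05. Confidence intervals are 95% intervals of the same fit, unadjusted. The fit was also run on simulated data. Their noise was independent between genes and few genes changed, so they cannot give the rate of false calls here. The 39 genes and the other lists were chosen with earlier results of these data known, so no list was tested as a set.

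By rule, any of the 39 genes may be named, with values in every sample for the 12 that rose and the 3 tested genes of each role with the smallest p. From other lists the rule takes genes past the threshold and up to 4 with the smallest p, and from marker lists also the first 4. Sample values of Ifit1, Ifit3, Oasl2, Mx1 and Mx2, and Ifnb1, Ifng, Ifne, Ifnlr1, Ifnar1, Ifnar2, Mavs, Irf3 and B2m, were chosen after their values were seen. Alternatives were the fit without the block, no filter, a filter on the lowest 60%, the mean of a gene's probes, eBayes without the trend, quantile normalization, median-centred arrays and each mouse left out. Summed marker levels are sums of 2 to the power of each log2 value. Figures were drawn with matplotlib 3.10.9.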

Additional observations from a re-analysis of the deposited data

Results flagged for a closer look

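In groups of 4 values, a sample was singled out where its gap to the nearest other value exceeded the 95% critical value of Dixon's test. This was checked in 138 sets of values and met in 10 (7.25%), and chance meets it in about 1 of 20.

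Rsad2 had 7.51 in the adjacent liver of M50, against 5.88 to 6.10 in the other adjacent samples. Ifit3 had 5.71 in the adjacent liver of M60, against 6.33 to 6.42 in the others, and its tumor minus adjacent difference of 0.655 in that mouse lay apart from -0.02 to 0.06. Bst2 differed by -0.30 in M60 and by -0.02 to 0.04 in the other mice. Rtp4 had 8.35 in the tumor of M48, against 7.94 to 7.98 in the other tumors.

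The remaining gaps were small or lay outside the 39 genes. Parp14 had 8.26 in the tumor of M24, against 8.38 to 8.41 in the others, Oas3 had 4.35 there, against 4.48 to 4.49, and Ifi35 had 7.77 in the tumor of M48, against 7.71 to 7.72. Timd4 differed by -0.33 in M60, against -1.19 to -1.06 in the other mice. Isoc1 differed by -0.18 in M48, against -0.36 to -0.33.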

How the results depend on the processing

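Of 325 recalculations of the 30 tested genes under 11 alternatives, 288 kept direction and side of the threshold. Of the 12 genes that rose, Ifih1, Zbp1, Dhx58, Usp18 and Isg20 kept their call under every alternative in which they were tested. The count of 12 genes higher ranged from 6 to 11 with a mouse left out and from 10 to 13 under the other alternatives, and 0 were lower except with no filter, where 1 (Mx2) was. Without the mouse as a block (no pairing) 10 were higher. The lost calls were Ifit2, Samd9l and Gbp7, and Xaf1 was gained. The median difference of 0.39 stayed between 0.33 and 0.45 (0.3346 and 0.4455).

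Over all genes, 1238 to 1759 were higher and 1071 to 1720 lower with a mouse left out, against 1945 and 1874 in the full fit. Among receptors and signalling genes 3 to 4 were higher and 1 to 3 lower with a mouse left out, and without the block 3 were higher and 1 lower. With no filter 1 was lower, and over the mean of a gene's probes 1 was lower. In the list of nucleic acid sensing upstream of interferon 2 to 5 genes were higher and 1 to 3 lower with a mouse left out. Without the block 4 were lower and with median-centred arrays 4. Of the second list of interferon-stimulated genes 17 to 25 were higher and 1 to 2 lower with a mouse left out, and 17 were higher under the stricter filter, which tested 46 of them. The mean differences of 7 genes that had not passed changed sign. With a mouse left out Irf1 ran from -0.0836 to 0.22, Irf9 from -0.0498 to 0.12, Stat2 from -0.129 to 0.17, Oas2 from -0.30 to 0.0438, Bst2 from -0.11 to 0.0034, Ifi35 from -0.0406 to 0.12 and Rtp4 from -0.0443 to 0.14. With median-centred arrays Irf9 was at -0.0383, Stat2 at -0.0339 and Ifi35 at -0.0002. The filter settings change how many genes are tested, and leaving out a mouse takes away samples. The cause of the changes under any alternative was not tested.

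The 4 pairs of arrays and the unstated detection limit restrict what can be seen, and genes with a mean below 4.597, among them Mx1, Mx2, Oas3 and 13 of 16 interferons, were not tested in the full fit.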
